A study of Mus musculus with 6 samples.

Results

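The 8 genes described here encode the enzymes that turn farnesyl diphosphate into squalene and squalene into zymosterol, the middle stretch of cholesterol synthesis: Fdft1, Sqle, Lss, Cyp51, Tm7sf2, Msmo1, Nsdhl and Hsd17b7. They were chosen by symbol, through the RefSeq accession that each probe carries, and are 8 of the 24177 features tested. A feature is a gene or, where a probe matched no single gene, the probe's own accession. The array holds 12 probes for them, of which 11 were bright enough to test. The LDL group was neural precursor cells given human low-density lipoprotein (LDL), the main cholesterol carrier of human blood, for 48 h, and the saline group was the same kind of culture given saline for 48 h. Each group had 3 arrays, from independent experiments on different passages. Shared by both groups, the precursor cells came from the dentate gyrus of male C57BL6/JRj mice 8 weeks old and grew as an attached layer with EGF and bFGF at 20 ng/ml each, for 2 days before treatment. The sources used here do not say how many animals gave the cells. The labels write the LDL dose as 100 ug/ml in one place and 100 ug/ul in another, so its unit is uncertain.

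Cells make sterols from acetyl-CoA, and squalene is the last intermediate without rings. FDFT1 makes it by joining farnesyl diphosphate head to head, SQLE adds the oxygen that primes it, and LSS folds it into lanosterol. CYP51 then takes off the methyl group at carbon 14, TM7SF2 reduces the double bond that this leaves, and MSMO1, NSDHL and HSD17B7 strip the methyl groups at carbon 4 in turn, which gives zymosterol. In mammals these genes are known targets of SREBP2, a membrane-bound transcription factor that is held back when the endoplasmic reticulum is rich in sterol. Cells that take up LDL receive its cholesterol in lysosomes.

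Because the genes are read as one group, the promoters of 3 of them are shown first: Cyp51 and Msmo1, which had the lowest values relative to saline, and Hsd17b7, which had the mildest difference. The reference table held a promoter for 6 of the 8 genes, not for Fdft1 and Sqle. Each line below is the stretch of 250 bases upstream of the transcript start from RefSeq, build GRCm38.p6, 5′ to 3′ on the strand of the gene. Capitals mark matches on either strand to CCAAT, the letters bound by NF-Y, to GGGCGG, the GC box bound by Sp1, and to TCACNCCAC, a consensus of the sterol response element, with at most 1 letter off.
Cyp51, chr5:4104698-4104947, minus strand: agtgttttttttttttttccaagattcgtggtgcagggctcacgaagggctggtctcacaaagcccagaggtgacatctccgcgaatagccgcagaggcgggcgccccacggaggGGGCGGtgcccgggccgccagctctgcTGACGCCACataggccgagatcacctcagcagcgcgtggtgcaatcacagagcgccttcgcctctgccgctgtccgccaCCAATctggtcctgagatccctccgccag
Msmo1, chr8:64733579-64733828, minus strand: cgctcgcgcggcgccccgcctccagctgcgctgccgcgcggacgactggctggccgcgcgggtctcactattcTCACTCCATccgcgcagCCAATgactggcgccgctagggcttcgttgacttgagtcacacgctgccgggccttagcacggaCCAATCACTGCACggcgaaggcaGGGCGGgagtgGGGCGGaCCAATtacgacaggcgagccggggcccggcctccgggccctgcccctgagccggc
Hsd17b7, chr1:169969206-169969455, minus strand: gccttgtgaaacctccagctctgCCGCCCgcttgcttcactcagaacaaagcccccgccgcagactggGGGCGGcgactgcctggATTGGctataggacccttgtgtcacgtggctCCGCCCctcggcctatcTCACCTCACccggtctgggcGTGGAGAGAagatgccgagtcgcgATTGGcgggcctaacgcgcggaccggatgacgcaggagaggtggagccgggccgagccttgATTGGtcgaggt
All 6 promoters on file held both a CCAAT and a GC box, as did 11.01% of the 32851 promoters of the same length in the table. Taken singly, CCAAT was in 33.8% and GGGCGG in 32.7% of all promoters. The exact sterol response element consensus was in 0 of the 6 and in 1.05% of all promoters. With 1 letter off it was in 4 of the 6, those of Cyp51, Msmo1, Nsdhl and Hsd17b7, against 20.7% of all promoters. In Msmo1 such a match shares 1 base with a CCAAT. The 6 promoters were rich in G and C, from 61.6% to 73.6%, where the median promoter had 52.4%. These are letters in a window and not binding sites, and nothing about the factors follows from them.

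Each of the 8 genes was lower on all LDL arrays than on any saline array, and 4 of them fell by the test across all features: Lss, Cyp51, Tm7sf2 and Msmo1. Among all 24177 features, 0.116% passed in the lower direction at an adjusted p of 0.05 (limma with Benjamini-Hochberg adjustment), and 8.79% had groups that did not overlap with LDL lower. Of the 8 genes 0 passed in the higher direction, where 0.0207% of all features did. The median log2 difference, LDL minus saline, was -1.49 over the 8 genes, from -1.92 to -0.99, and -0.03 over all features. The level that remained after LDL ran from 26.5% of saline for Msmo1 to 50.2% for Hsd17b7. In RNA from whole cultures, fewer cells that express a gene and less of its RNA per cell cannot be told apart.

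**Figure D1:**
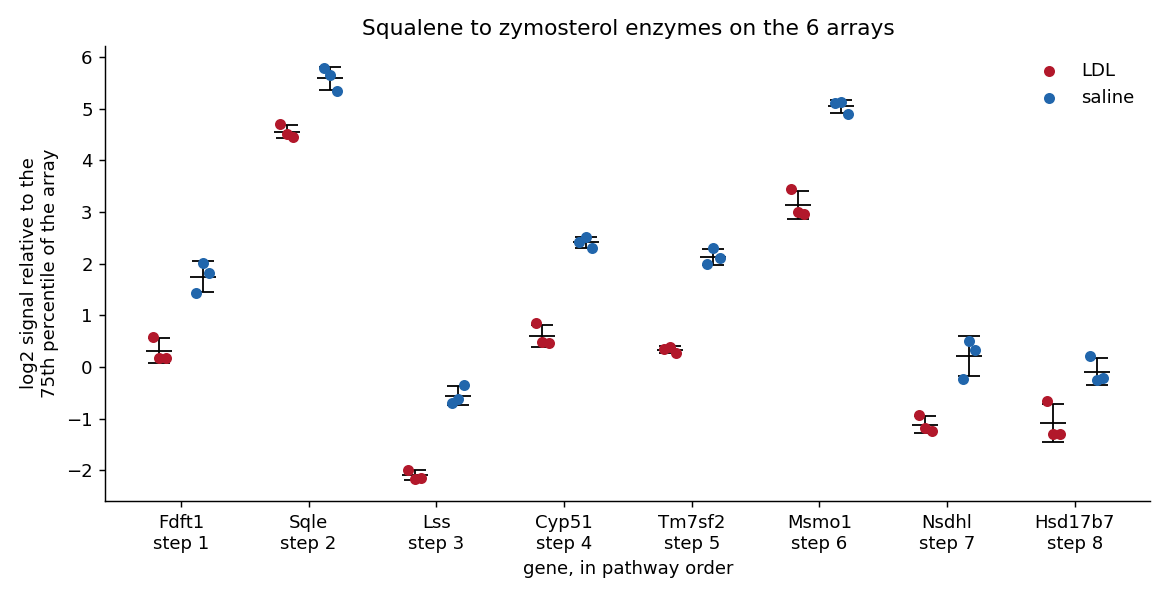
Log2 signal with the array's 75th percentile set to 0 (vertical axis) for the 8 genes in pathway order, 3 LDL arrays in red beside 3 saline arrays in blue; black bars are the mean and SD. All 3 LDL points lie below all 3 saline points for each gene, and heights should not be compared between genes, since each has its own probe.

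The first pair of enzymes makes and primes squalene. Values from here on are log2 signals scaled so that 0 is the 75th percentile of that array. Fdft1, squalene synthase, had 0.59, 0.18 and 0.17 on LDL replicates 1 to 3, against 1.42, 2.01 and 1.82 on saline replicates 1 to 3. The groups stood 0.83 apart at their nearest points, and LDL replicate 1 was the highest of its group while saline replicate 1 was the lowest of its own. The log2 difference of Fdft1 was -1.44 (SE 0.19, 95% interval -1.88 to -0.99), which did not pass over all features (adjusted p = 0.0765). A dimmer probe of Fdft1 was well above background on 0 LDL arrays and 1 saline array, so it was not tested and gives no fold change.

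Sqle, squalene epoxidase, is a step at which the flux of the pathway is known to be controlled. It had 4.69, 4.52 and 4.46 on the LDL arrays, against 5.78, 5.64 and 5.34 on the saline arrays. The SD was 0.12 with LDL and 0.23 with saline, and the gap between the groups was 0.64. Its difference of -1.03 (SE 0.14, 95% interval -1.37 to -0.69) left 49.0% of the saline level and did not pass (adjusted p = 0.0932).

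Lss, Cyp51 and Tm7sf2, the next genes in pathway order, fell. Lss had -1.99, -2.16 and -2.15 on LDL arrays, against -0.70, -0.62 and -0.35 on saline arrays. With LDL all 3 values of Lss lay within a narrow span, and the nearest saline value was 1.29 higher. The log2 difference of Lss was -1.55 (SE 0.13, adjusted p = 0.0119), a 2.92-fold lower level.

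Cyp51, the lanosterol demethylase, had 0.85, 0.49 and 0.47 with LDL, against 2.43, 2.52 and 2.30 with saline. LDL replicate 1 was again the highest of the LDL arrays, and still 1.45 below the lowest saline array. Cyp51 fell by 1.81 on the log2 scale (SE 0.14, 95% interval -2.14 to -1.49, adjusted p = 0.0102), to 28.5% of saline.

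Tm7sf2, a C14 sterol reductase, had 0.36, 0.39 and 0.26 with LDL, against 1.99, 2.30 and 2.10 with saline. It had the widest gap between groups of the 8 genes, 1.60, and the smallest adjusted p. Tm7sf2 fell by 1.79 (SE 0.11, 95% interval -2.06 to -1.52, adjusted p = 0.0083), a 3.47-fold lower level. Its dimmer probe had -2.29, -2.17 and -1.78 with LDL and -1.08, -0.22 and -0.44 with saline. That probe also had groups apart, but saline replicate 1 lay well below the other saline arrays, and among single probes its difference of -1.499 did not pass (adjusted p = 0.182).

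Of the genes that act at carbon 4, Msmo1 fell and the others, Nsdhl and Hsd17b7, did not pass on their brighter probes. Msmo1, the methyl sterol monooxygenase that opens this reaction, had 3.44, 2.99 and 2.96 with LDL, against 5.11, 5.12 and 4.90 with saline. The 3 saline arrays lay close together, and LDL replicate 1 was the highest of the LDL arrays. Its log2 difference, -1.92 (SE 0.16, 95% interval -2.29 to -1.55, adjusted p = 0.0119), was the lowest of the 8 genes and a 3.77-fold lower level.

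Nsdhl, the sterol decarboxylase that follows, gave a different call from each of its probes. The brighter one had -0.93, -1.18 and -1.25 with LDL, against -0.23, 0.51 and 0.33 with saline. Its saline arrays were spread, with replicate 1 at the bottom, and the difference of -1.32 (SE 0.20, 95% interval -1.81 to -0.84) did not pass (adjusted p = 0.126). The dimmer probe had -3.56, -3.76 and -3.56 with LDL, against -1.89, -1.99 and -1.96 with saline. Its saline SD was 0.05, against 0.39 for the brighter probe. Tested among single probes, of which 0.0729% passed in the lower direction, the dimmer probe fell by 1.68 (SE 0.11, adjusted p = 0.00858). With the mean of both probes standing for the gene, Nsdhl was at -1.503 and passed (adjusted p = 0.0126).

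Hsd17b7, the keto-reductase that completes the removal, had -0.65, -1.30 and -1.30 with LDL, against 0.20, -0.26 and -0.22 with saline. LDL replicate 1 lay only 0.39 below the nearest saline array. The difference of -0.99 (SE 0.22, 95% interval -1.51 to -0.48) did not pass (adjusted p = 0.334). The dimmer probe of Hsd17b7 had -1.55, -2.39 and -2.49 with LDL and -1.41, -1.24 and -1.28 with saline. Here the same LDL array sat 0.14 below the saline group while the other two LDL arrays were lower than every other value, and the difference was -0.83 (adjusted p = 0.558 among single probes).

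All 11 tested probes of the 8 genes had LDL arrays below saline arrays with no overlap, as did 8.42% of the single probes tested.

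**Figure D2:**
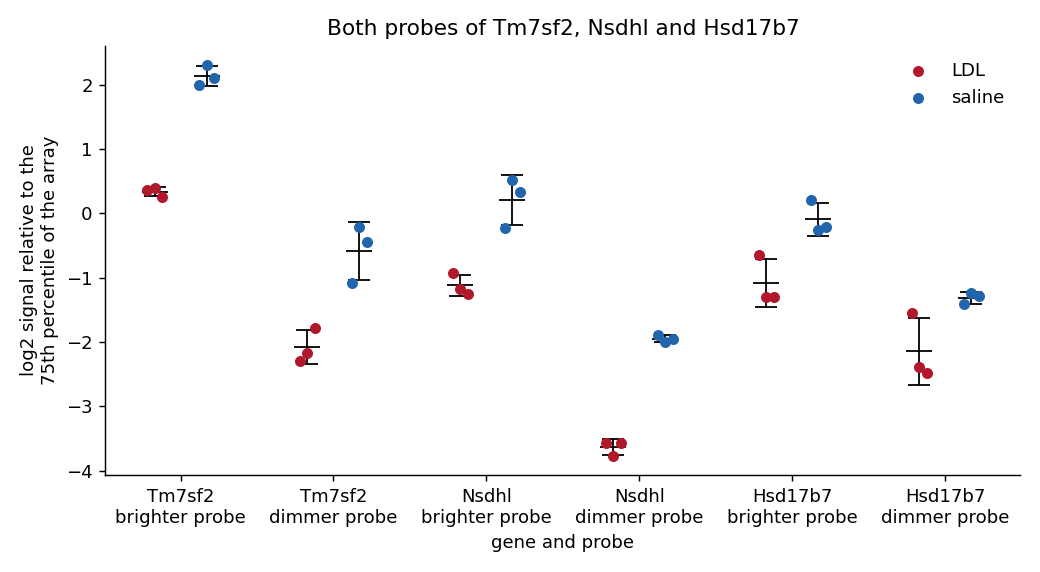
Log2 signal, with the array's 75th percentile set to 0, for the brighter and the dimmer probe of Tm7sf2, Nsdhl and Hsd17b7, with 3 LDL arrays in red left of 3 saline arrays in blue, and mean and SD in black. The groups do not overlap for any of these 6 probes, and the dimmer Nsdhl probe has the tightest saline group, with an SD of 0.05.

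Ordered by size, the falls ran Msmo1, Cyp51, Tm7sf2, Lss, Fdft1, Nsdhl, Sqle and Hsd17b7. Each gene's 95% interval overlapped that of its neighbour in this order, and neighbours were not tested against each other. Of 28 pairs, 5 had intervals that did not meet: Sqle with Cyp51, Tm7sf2 and Msmo1, and Hsd17b7 with Tm7sf2 and Msmo1. Each gene was also set against the mean of the other 7 within every array. This difference shifted by 0.56 for Hsd17b7 and 0.52 for Sqle, LDL minus saline, so they stood higher relative to the rest after LDL. It shifted by -0.50 for Msmo1, -0.38 for Cyp51 and -0.36 for Tm7sf2. For these 5 genes the groups did not overlap and the exact two-sided permutation p was 0.1, the smallest that 3 against 3 arrays allow (0.16 after Benjamini-Hochberg adjustment over 8 tests). Lss, Fdft1 and Nsdhl overlapped, with adjusted exact permutation p = 0.9. The design therefore cannot show by this test that the steps responded unequally.

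Within the LDL group most of the 8 genes, but not Tm7sf2 and Lss, had the same order of arrays. LDL replicate 1 was the highest LDL array for 7 of the 8 genes and LDL replicate 3 the lowest for 7. Over all features LDL replicate 1 was the highest of its group in 39.1%. On average the 8 genes lay 0.22 above the LDL mean on replicate 1, with deviations of -0.09 on replicate 2 and -0.13 on replicate 3. Among saline arrays replicate 2 was the highest for 5 genes, with a mean deviation of 0.09, and over all features it was the highest in 35.1%. Such a share was not taken for the lowest array.

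Within slide row 1, which held 2 arrays of each group, the median of the 8 genes was -1.37. Within slide row 2, which held 1 of each, it was -1.72. The widest difference between rows was for Nsdhl, with -1.19 in row 1 and -1.58 in row 2, and Sqle had -1.11 and -0.88.

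The calls, but not the direction, depended on which arrays were kept. Leaving out saline replicate 3, or LDL replicate 2, or LDL replicate 3 left 0 of the 8 genes past the threshold in limma. All 8 had an unadjusted p below 0.05 in each of these fits. So did 7.5% of all features in the reported fit, and 1556, 995 and 1372 of 24177 in these fits, in that order. In those fits Lss, Cyp51, Tm7sf2 and Msmo1 had adjusted p between 0.064 and 0.0989. Without saline replicate 2 only Tm7sf2 passed (adjusted p = 0.0275). Without saline replicate 1 the same 4 and Nsdhl passed (adjusted p = 0.0322 for Nsdhl), and without LDL replicate 1 the 4 passed.

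**Figure D3:**
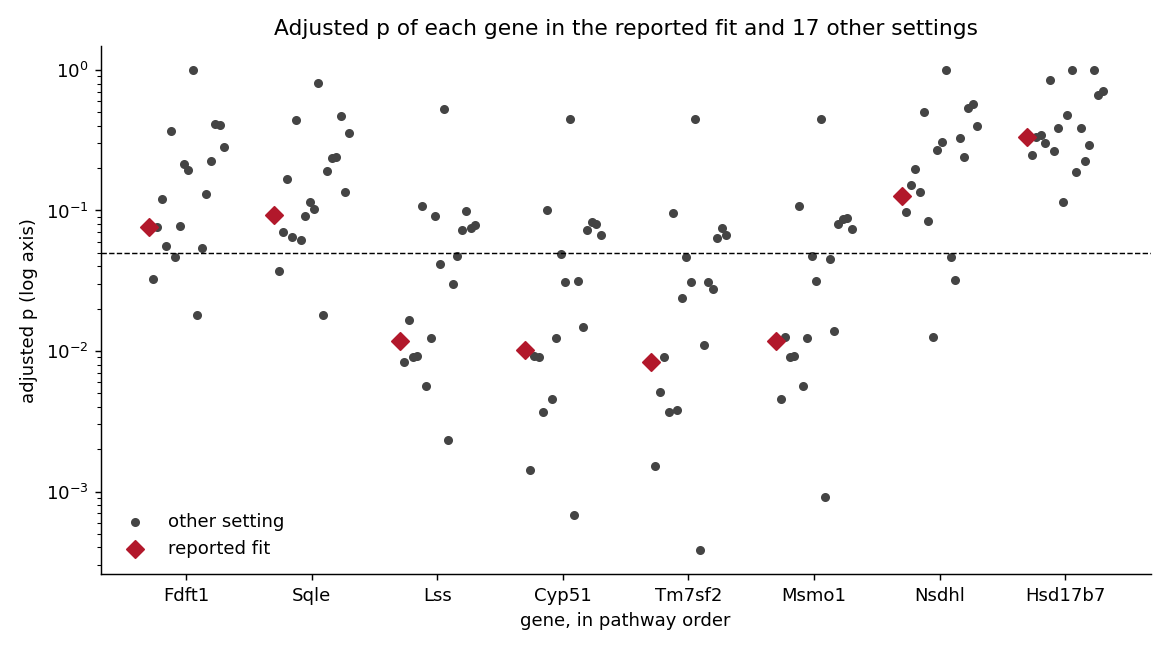
Adjusted p on a log axis for each gene in pathway order, with the reported fit as a red diamond and 17 other processing settings as grey points; the dashed line is 0.05. Lss, Cyp51, Tm7sf2 and Msmo1 lie below the line in 10 to 12 of 17 settings, Hsd17b7 in 0, and the highest point of every gene but Hsd17b7 is that of slide row 1 alone.

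Of the 11 enzymes before and after the stretch 8 fell as well, most of them before squalene. Over all features 0.116% passed in the lower direction. Of 8 genes before squalene, 7 fell and Pmvk, phosphomevalonate kinase, did not pass (-0.64, adjusted p = 0.198). Their median difference was -1.13. Hmgcs1, which makes HMG-CoA, was at -2.15 (adjusted p = 0.00956) and Fdps, whose product FDFT1 consumes, had 2.87 ± 0.11 with LDL and 4.83 ± 0.09 with saline (SD, n = 3 each), a difference of -1.96 (adjusted p = 0.00453 by limma). Of 3 genes after zymosterol, 1 fell, Sc5d, the lathosterol desaturase, at -1.03 (adjusted p = 0.0446). Dhcr7, the last reductase of one branch, was at -0.93 and did not pass (adjusted p = 0.148). Ebp, the isomerase that receives zymosterol, had 2.64 ± 0.07 with LDL and 2.85 ± 0.18 with saline, with groups that overlapped and a difference of -0.22 (95% interval -0.50 to 0.07). Whether these neighbours differ from the 8 genes was not tested.

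**Figure D4:**
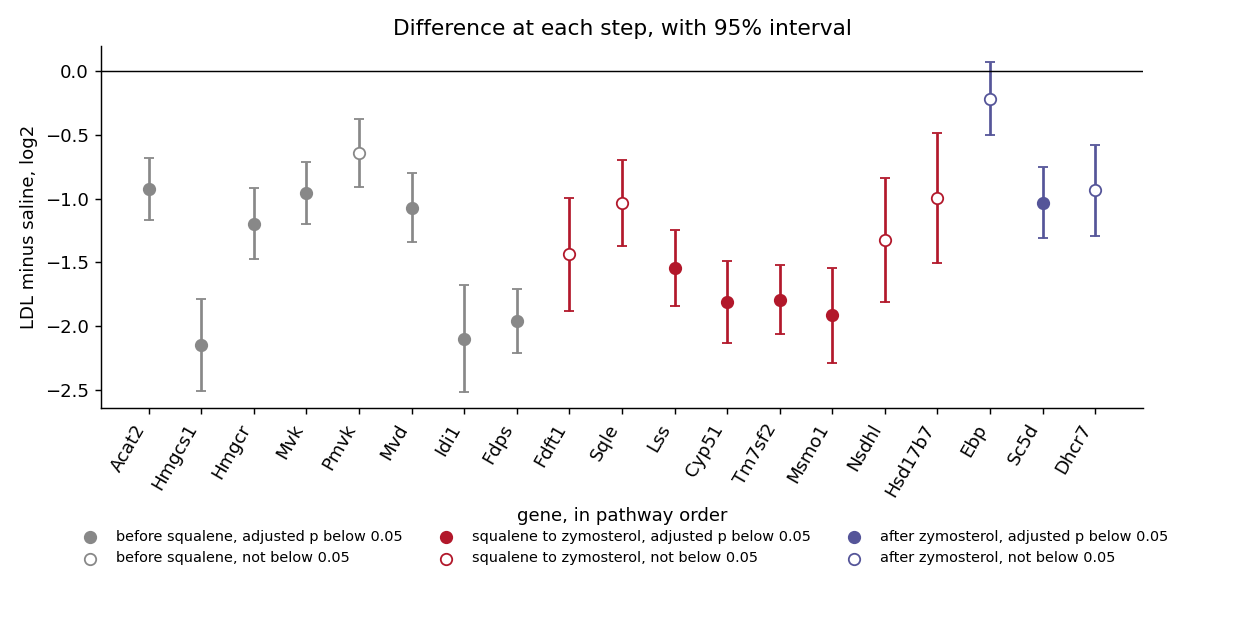
Log2 difference, LDL minus saline, with 95% interval for genes in pathway order: 8 before squalene in grey, 8 from squalene to zymosterol in red and 3 after zymosterol in blue, filled where the adjusted p is below 0.05. All points plotted lie below 0, from Ebp at -0.22 to Hmgcs1 at -2.15.

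Genes for proteins that work beside the 8 enzymes mostly had differences near 0. Of 11 such genes 10 were tested and 0 passed, with a median of 0.11 and a range from -0.62 to 0.25. Faxdc2, a relative of Msmo1, has no probe named through the accessions used. Por, the reductase that feeds electrons to CYP51 and SQLE, was at 0.25 (95% interval -0.07 to 0.57). Cyb5r3 and Cyb5a, which serve MSMO1 with electrons, were at 0.14 and 0.21, and Cyb5b was at -0.13 on its dimmer probe, since the brighter one was flagged on 1 saline array. Marchf6, a ubiquitin ligase known to degrade SQLE, was at 0.18 (95% interval -0.27 to 0.62). Erg28, known in yeast as a scaffold that holds the carbon 4 enzymes together, had the lowest value of the list: 3.99 ± 0.10 with LDL and 4.61 ± 0.12 with saline (SD, n = 3 each). The groups of Erg28 did not overlap, and its difference of -0.62 (95% interval -0.88 to -0.36) did not pass (adjusted p = 0.204 by limma).

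Lbr is the natural counterpart of Tm7sf2, because the lamin B receptor also reduces the bond at carbon 14. Lbr had 1.18 ± 0.03 with LDL and 1.47 ± 0.11 with saline (SD, n = 3 each), a difference of -0.28 (95% interval -0.52 to -0.05, adjusted p = 0.576 by limma). Within each array Tm7sf2 minus Lbr was -0.85, -0.75 and -0.94 with LDL, against 0.57, 0.71 and 0.72 with saline. The groups did not overlap, and since the probes differ only the shift between groups can be read, not the sign. The shift was -1.51, so the ratio of the Tm7sf2 to the Lbr signal after LDL was 0.351 of that with saline (exact two-sided permutation p = 0.1, the smallest possible here). The dimmer Lbr probe gave -0.58 and the dimmer Tm7sf2 probe -1.499. The ratio was not taken with these probes, so its size holds for the brighter probes only.

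**Figure D5:**
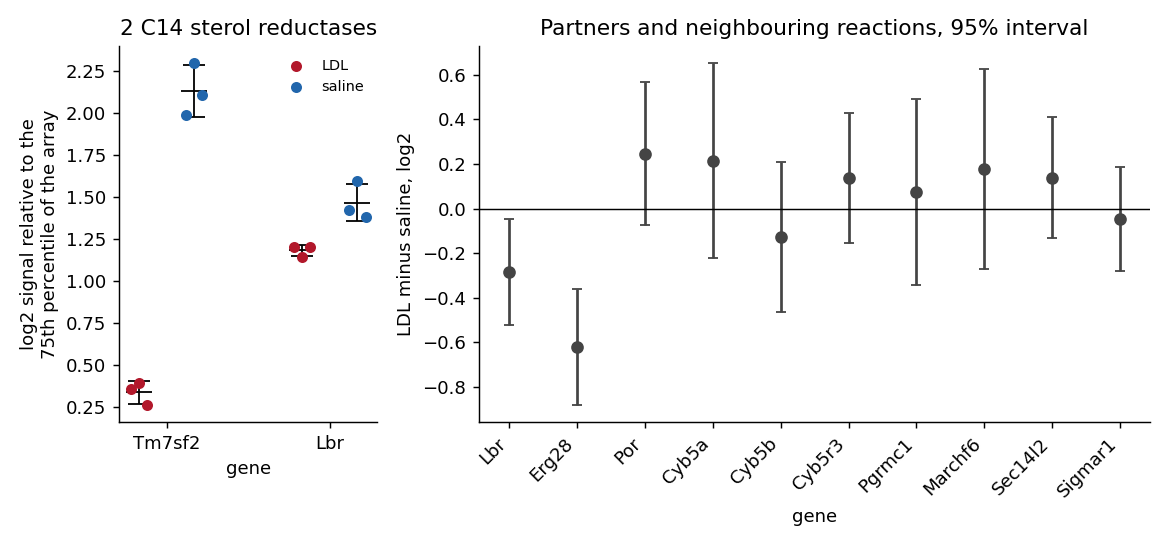
Left, log2 signal, with the array's 75th percentile set to 0, for Tm7sf2 and Lbr, with LDL in red left of saline in blue and mean and SD in black; right, log2 difference, LDL minus saline, with 95% interval for 10 partner genes. Tm7sf2 has its groups 1.60 apart, and the partner genes run from -0.62 for Erg28 to 0.25 for Por.

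Other users of farnesyl diphosphate, the substrate that FDFT1 draws into sterols, were also tested. None of these 7 genes passed, and their median was 0.04, from -0.02 to 0.29. Ggps1, which extends it to geranylgeranyl diphosphate, was at 0.04 (95% interval -0.25 to 0.34), and Nus1, a subunit of the enzyme for dolichol, at 0.29 (95% interval 0.02 to 0.56, adjusted p = 0.635). Of 5 regulators, Insig1 at -2.02 (adjusted p = 0.0106) and Srebf1 at -1.32 (adjusted p = 0.0332) fell. Srebf2, which encodes SREBP2, was at -0.85 and did not pass (adjusted p = 0.487).

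The genes whose array pattern was most like the mean of the 8 were named from 2212 features that varied enough over the 6 arrays. They included Insig1, Fdps, Elovl6, Aacs, Hmgcs1, Sc5d and Stard4, with Pearson r from 0.992 to 0.997 over 6 arrays. These values share the same arrays and the same 2 groups and are given as a description. Elovl6, a fatty acid elongase, was at -1.19, and Aacs, which makes acetoacetyl-CoA in the cytosol, at -0.58 (adjusted p = 0.203). Among the 8 genes themselves, r with the mean of the other 7 ran from 0.901 for Hsd17b7 to 0.998 for Cyp51.

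Checks of the cultures bear on all of these values. The share of probes above background ran from 55.9% to 66.9% over the 6 arrays, and no spot was saturated. All 8 precursor markers, such as Nes and Sox2, were well above background on all 6 arrays, and 0 passed the test. Their summed signal, in multiples of the 75th percentile, was 392.2 to 424.7 with LDL and 377.2 to 446.5 with saline. Genes listed as markers of other cell types were mostly well above background on all 6 arrays too. These were 4 of 5 neuronal, 5 of 5 astrocyte, 3 of 4 oligodendrocyte and 4 of 5 microglial genes. For the vascular list it was 2 of 4. Whether the signal of these genes came from such cells or from the precursors was not tested. Dcx of the neuronal, Cldn11 of the oligodendrocyte and Pdgfrb of the vascular markers were above background on no array. The 5 astrocyte markers summed to 129.3 to 145.9 with LDL and to 159.3 to 184.0 with saline, groups that did not overlap, and 1 of them passed, Gfap, in the higher direction. Summed signals with LDL and with saline overlapped for neuronal, oligodendrocyte and microglial markers, and for the vascular list, with 2 of 4 tested, they were 13.3 to 13.99 with LDL and 14.03 to 14.7 with saline, with no overlap. The part of these shifts in the result was not tested.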

How the data were processed

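The arrays, 3 LDL and 3 saline on 1 slide, were 1-colour Agilent arrays of Cy3 cRNA made from 100 ng of total RNA, per the labels' protocols. The deposited scanner values are spot intensity, written by Agilent Feature Extraction 10.7.3.1, as the file headers state. Their parameter block lists no background or normalization settings. The files hold no mean spot signal and no gene name column. The authors' deposited log2 table has column medians of 6.74 to 6.76, made by scaling steps not given in the sources used here, and was an alternative. The submitters' processing notes also list R 3.4.4 and limma 3.34.9.

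Each processed signal was put on a log2 scale and lowered by the 75th percentile of its array, taken over non-control spots. Outlier-flagged spots were dropped, and probes with no spot left on an array were not tested. A probe was tested if at least 50% of its spots were well above background on all 3 arrays of a group. Of 55681 probes, 28331 were named through unversioned RefSeq accessions, matched to a gene table of GRCm38.p6 that was used for names only, and the brightest tested probe stood for a gene. No probe sequence was used, so cross-hybridization of close relatives was not checked.

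Groups were compared by two-sided moderated tests (limma 3.58.1, R 4.3.3) without covariates, adjusted over all 24177 features, and by exact permutation for differences between genes. The fit was tested on simulated data with known changes. It recovered 60.8% of changes of -1 on the log2 scale, 83.6% of -1.5, 92% of -2 and 97.6% of -3. Of 869 calls in the simulated data, 34 were false. All 8 genes were named whatever their values, the other pathway genes came from lists by role, and the genes most like them are from the 8 highest r among features with an SD of at least 0.3. Some genes of these lists are not reported here and were left out of the counts. Members and lists were chosen with earlier results of these data known. Alternatives covered the scaling (normexp with offset 50 on median spot signals plus quantile normalization, quantile alone, median, the authors' table), the filter (off, or all 6 arrays), the probes (averaged per gene, or taken singly), a block for slide row or for replicate number, either slide row by itself, trended robust variances, and dropping each array. The number of arrays limits the precision. Figures were drawn with matplotlib 3.10.9.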

Additional observations from a re-analysis of the deposited data

How the results depend on the processing

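All 8 genes kept a negative difference in the 17 settings that gave 1 value per gene. The median of -1.49 ran from -1.61 to -1.42 with 1 array left out, was -1.34 with normexp and quantile normalization, and was -1.72 in slide row 2 alone, which has 1 array of each group and no test. Of the 8 genes, 4 passed in the reported fit, 0 without the background filter (where 36659 features share the adjustment), 0 in slide row 1 alone, 7 with trended robust variances, and 0 to 5 with 1 array left out. Where limma called 0, the features at an unadjusted p below 0.05 numbered 1775 (filter off), 860 (slide row 1), 995 (LDL replicate 2 dropped), 1372 (LDL replicate 3 dropped) and 1556 (saline replicate 3 dropped), each time with all 8 genes. The other 11 enzymes of the pathway had 8 calls in the reported fit, 4 with median scaling, 5 as single probes, 0 without the filter, 3 with the replicate block, 4 with slide row as a block, 0 in slide row 1 and 0 to 4 with 1 array left out. Over all features, 28 were lower and 5 higher. The lower count became 0 without the filter, 11 with the replicate block, 15 with a slide row block and 0 for row 1 by itself. The higher count was 9 under normexp and quantile normalization, 8 under median scaling, 9 in the authors' table, 0 without the filter, 3 with the replicate block, 0 with a slide row block, 0 for row 1 by itself and 16 with trended robust variances. With 1 array left out they ran from 0 to 25 and from 0 to 7. Dropping 1 array lowers the degrees of freedom equally whichever array it is, and the counts differed with the array dropped. Why any of the settings moved the counts was not tested. With replicate number as a block, 3 of the 8 genes passed, and Lss did not (adjusted p = 0.0908 by limma). Deviations of same-numbered arrays correlated at 0.24, -0.08 and 0.21, and those of arrays with different numbers at -0.27 to 0.08. The labels do not say that a number marks a shared passage or day, so pairing was not assumed. No scaling moved the median of all features by more than 0.04.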
